A study of Mus musculus with 6 samples.

Results

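Sox10, Foxd3, Erbb3, Cdh19, Fabp7 and Mbp are genes by which Schwann cells and their neural crest precursors are commonly recognised. They were taken by symbol from gene-level count tables of mouse tooth germs, which hold 23420 symbols, and all 6 were found. Bulk RNA was sequenced from 3 Smad7-/- and 3 wild-type (WT) libraries. All libraries came from C57BL/6 embryos labelled E15.5, a stage at which the tooth germ is a folded epithelium around condensed mesenchyme. Smad7 encodes an inhibitory SMAD, a brake on signalling by TGF-beta and BMP receptors, and the knockout was set against WT to see what its loss does to tooth transcripts. The labels do not give the design of the Smad7 allele, which teeth were taken, or whether a library is 1 embryo or a pool, so each p-value reflects library-to-library spread, which may be technical.

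Schwann cells arise from neural crest cells that travel along growing nerves as Schwann cell precursors. Sox10 is required at each step of this lineage and drives Erbb3, the receptor through which glial cells read axonal neuregulin. Foxd3 keeps crest cells in a progenitor state, Cdh19 and Fabp7 mark the precursors, and Mbp is a structural component of the myelin made much later. In the mouse incisor, glial cells of this kind have been traced into pulp cells and odontoblasts.

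The tables held 37591888 to 56575476 counts in the Smad7-/- libraries and 47800685 to 52137318 in the WT libraries. Smad7 itself had 80, 62 and 41 counts in the Smad7-/- libraries, against 1097, 934 and 859 in the WT libraries, so every library matched its label. Krt5, a keratin of basal epithelium, was present in every library and lay at 3403 to 4372 CPM (read counts scaled to a common library size) in Smad7-/- and 4074 to 4556 CPM in WT. Smad7-/- library 3 and WT library 1 carried Xist reads, and the other 4 libraries carried Y-linked reads. The first principal component, with 33.5% of the variance, separated Smad7-/- libraries 1 and 2 and WT library 1 from Smad7-/- library 3 and WT libraries 2 and 3. Values that turn on WT library 1 are given with and without it.

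None of the 6 genes passed the test between genotypes, while all 6 passed the filter on low counts. Over all genes, 4 of 15284 tested (0.0262%) passed at an adjusted p under 0.05 in edgeR's quasi-likelihood test, 2 of them higher in Smad7-/- (0.0131%) and 2 lower (0.0131%). By DESeq2, 56 genes (0.366%) passed, and again none of the 6. At an unadjusted p under 0.05, 1 of the 6 genes was called, Sox10, by both tools, against 5.14% of all tested genes in edgeR and 5.72% in DESeq2.

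Sox10, the transcription factor that defines the glial lineage of the neural crest, lies at chr15:79154908-79165240 on the reverse strand (mm10). It was the only 1 of the 6 whose groups did not overlap, against 8.88% of all tested genes. It lay at 1.20, 1.36 and 1.28 CPM in the Smad7-/- libraries, against 0.449, 0.789 and 0.900 CPM in the WT libraries. Every Smad7-/- library was above every WT library, and the 3 Smad7-/- values lay close together. Means were 1.28 ± 0.0797 CPM in Smad7-/- and 0.713 ± 0.235 CPM in WT (SD, n = 3 libraries each). The log2 fold change was 0.85 ± 0.34 (SE), a 1.80-fold difference with a 95% interval of 1.06 to 3.04, and it did not pass over all genes (edgeR unadjusted p = 0.0319, adjusted p = 0.900). Ranges that do not overlap, with Smad7-/- higher, were found for 4.97% of all tested genes.

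The counts behind these values were small: 45, 59 and 74 reads in the Smad7-/- libraries, against 23, 39 and 43 in the WT libraries. The exact 95% Poisson interval was 0.284 to 0.673 CPM in WT library 1, below the interval of each Smad7-/- library. In WT libraries 2 and 3 the intervals, 0.561 to 1.08 and 0.652 to 1.21 CPM, overlapped those of all 3 Smad7-/- libraries, whose lower bounds were 0.874, 1.03 and 1.01 CPM. These intervals cover counting error only, since PCR copies of 1 molecule were not told apart. Without WT library 1 the log2 fold change was 0.59 (edgeR adjusted p = 0.623).

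Among the 4 libraries with Y-linked reads, which leave out WT library 1, the log2 fold change of Sox10 was 0.60 (edgeR adjusted p = 0.411). The libraries with Xist reads were 1 of each genotype, too few for a test. With the side of the first principal component as a covariate it was 1.02 (edgeR adjusted p = 0.615), where WT library 1 is the only WT library on its side.

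**Figure D1:**
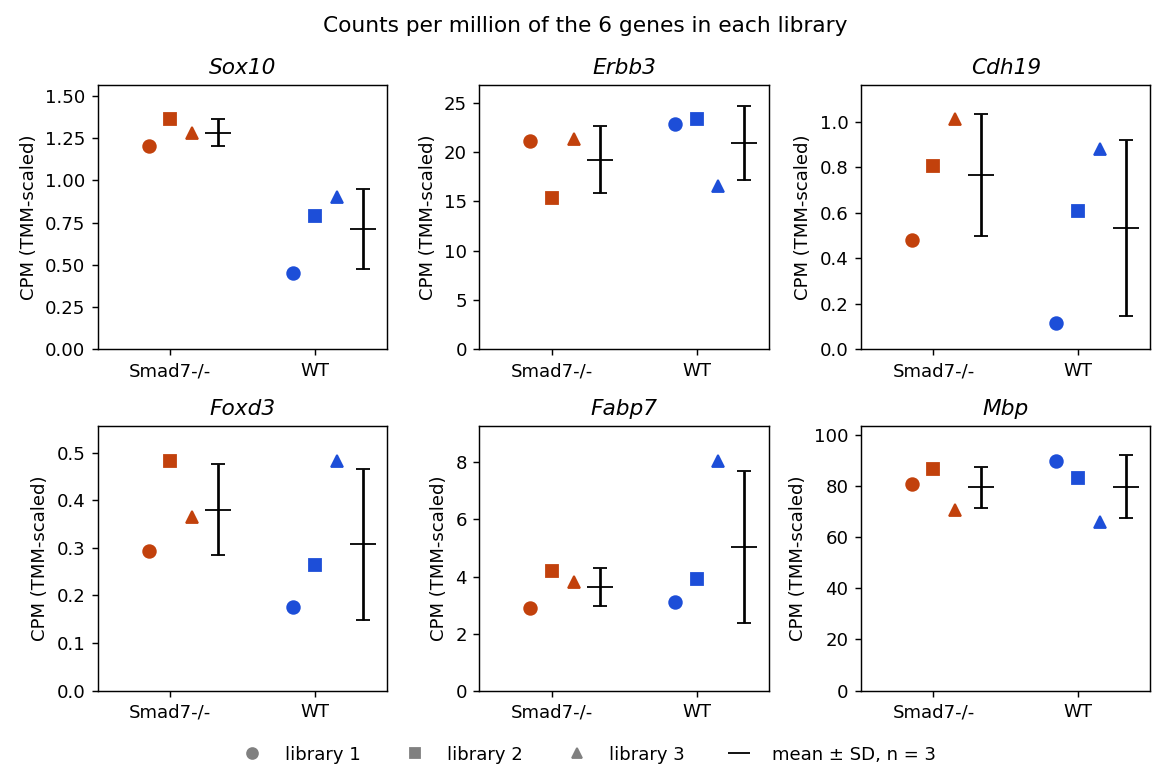
CPM (scaled by TMM library sizes) of the 6 genes in each library, 3 Smad7-/- libraries on the left and 3 WT libraries on the right of each panel. Symbols give the library number within its group, and the black bar is the mean ± SD (n = 3). Sox10 is the panel in which the groups do not overlap, at 1.20 to 1.36 CPM in Smad7-/- and 0.449 to 0.900 CPM in WT.

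Foxd3, a forkhead repressor that holds neural crest cells in a progenitor state and blocks melanocyte fate, was the least abundant of the 6 and lies at chr4:99656299-99658622 on the forward strand. It had 11, 21 and 21 counts in the Smad7-/- libraries, against 9, 13 and 23 counts in the WT libraries. These equal 0.293, 0.483 and 0.364 CPM in Smad7-/- and 0.176, 0.263 and 0.482 CPM in WT. The groups overlapped over most of their range, WT library 1 being lowest and Smad7-/- library 2 and WT library 3 highest. The log2 fold change of 0.32 ± 0.48 (SE) did not pass (edgeR adjusted p = 0.999), and its 95% interval of 0.595-fold to 2.61-fold includes differences of either sign, which this depth could not tell apart.

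Of the 6 genes, 2 had a promoter in the RefSeq table for GRCm38.p6, Foxd3 and Fabp7. The bases before their annotated starts are shown for sequence context: Foxd3 is the least abundant of the 6, and in Fabp7 a single WT library stood apart from the other 5 libraries. Capitals mark matches on either strand to 7 motifs: TGACGTCA (the cyclic AMP response element), CACGTG (an E-box), the CCAAT box, the TATA box TATAAA, the SOX-type words ACAAAG and ACAATG, and CAGAC (a SMAD box). The response element, the E-box and the CCAAT box were added after the sequences had been read.
Foxd3, chr4:99656049-99656298, forward strand: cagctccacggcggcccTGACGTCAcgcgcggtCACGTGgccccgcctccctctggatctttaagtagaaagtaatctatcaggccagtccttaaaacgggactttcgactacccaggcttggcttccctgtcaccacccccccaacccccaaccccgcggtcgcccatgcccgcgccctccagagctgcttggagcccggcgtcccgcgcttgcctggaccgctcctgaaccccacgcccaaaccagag
Fabp7, chr10:57784673-57784880, forward strand: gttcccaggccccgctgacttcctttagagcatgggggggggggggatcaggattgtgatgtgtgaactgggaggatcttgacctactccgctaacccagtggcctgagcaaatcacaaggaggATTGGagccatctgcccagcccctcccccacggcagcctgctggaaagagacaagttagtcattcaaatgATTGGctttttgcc
The Foxd3 stretch holds TGACGTCA, which 1.55% of all 32851 promoter windows of 250 bases hold, and CACGTG, which 6.02% hold; the matches begin 233 and 217 bases before the start and do not overlap. The Fabp7 stretch is shorter, at 208 bases, because it ends at the GENCODE gene start. It holds CCAAT at 2 places on the reverse strand, a motif found in 29.6% of windows cut to the same 208 bases. Neither stretch holds ACAAAG or ACAATG, of which at least 1 is present in 25.2% of windows of 250 bases and 22% of those of 208. Neither holds CAGAC, present in 42.2% and 36.9%, or TATAAA, present in 12.4% and 9.47%. A match describes the letters only, and its absence says only that these letters are not in this window.

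Erbb3, the neuregulin receptor of Schwann cells (chr10:128567523-128589652, reverse strand), was present at a level well above that of Sox10 and showed no difference between genotypes beyond the spread of libraries. It lay at 21.1, 15.3 and 21.3 CPM in the Smad7-/- libraries, against 22.8, 23.3 and 16.6 CPM in the WT libraries. The lowest 2 values came from 1 library of each genotype, so the ranges overlapped. The log2 fold change was -0.12 ± 0.17 (SE; edgeR adjusted p = 0.999), with a 95% interval of 0.707-fold to 1.20-fold. Per kb of exon, Erbb3 stood at 5.71 to 8.95 times the level of Sox10 in Smad7-/- and 9.36 to 25.7 times in WT. The value of 25.7 was that of WT library 1, where Sox10 was lowest, and WT libraries 2 and 3 stood at 15 and 9.36.

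In the list of neuregulin and ErbB signalling genes, 15 of 17 were tested, 0 passed by edgeR in either direction or by DESeq2, and the median log2 fold change was 0.02. An unadjusted p under 0.05 in edgeR was found for 1 of the 15, against 5.14% of all tested genes. Ranges did not overlap for 1 of the 15, Adam10, which was lower in Smad7-/-, against 3.91% of all tested genes. Erbb2, the co-receptor that supplies kinase activity to Erbb3, lay at 91.2 to 100 CPM in Smad7-/- and 93.2 to 102 CPM in WT. Nrg1, which encodes the axonal ligand, was near the floor of detection, at 5 to 21 counts in Smad7-/- and 8 to 15 counts in WT. Adam10, a membrane protease, had a log2 fold change of -0.18 ± 0.09 (SE; edgeR adjusted p = 0.995). The abundant scaffold gene Erbb2ip and the phosphatase gene Ptpn11 stood at 0.09 ± 0.12 and -0.04 ± 0.10. Gab1, a docking protein of receptor tyrosine kinases, had the smallest unadjusted p of the list, with a log2 fold change of 0.25 ± 0.10 (edgeR adjusted p = 0.900).

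Cdh19, a cadherin of Schwann cell precursors (chr1:110888326-110977584, reverse strand), varied more between libraries of 1 genotype than any other member. It had 18, 35 and 58 counts in the Smad7-/- libraries, against 6, 30 and 42 in the WT libraries. In CPM these were 0.479, 0.805 and 1.01 in Smad7-/- and 0.117, 0.607 and 0.880 in WT. The highest library stood 8.60 times above the lowest, and the coefficient of variation was 34.9% in Smad7-/- and 72.3% in WT. The log2 fold change of 0.53 ± 0.59 (SE) did not pass (edgeR adjusted p = 0.999; 95% interval 0.576-fold to 3.63-fold). It rested on WT library 1: without that library the value was 0.05, and without WT library 3 it was 1.09. With the side of the first principal component as a covariate it was 1.18 (edgeR unadjusted p = 0.0542, adjusted p = 0.772). Among the libraries with Y-linked reads alone it was -0.20.

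Fabp7, a fatty acid binding protein of radial glia and of Schwann cell precursors (chr10:57784881-57788450, forward strand), lay at 2.90, 4.19 and 3.80 CPM in the Smad7-/- libraries, against 3.10, 3.92 and 8.06 CPM in the WT libraries. Of these, 5 lay between 2.90 and 4.19 CPM, and WT library 3 stood apart at 8.06 CPM. The log2 fold change was -0.47 ± 0.34 (SE; edgeR adjusted p = 0.999; 95% interval 0.426-fold to 1.23-fold). Without WT library 3 it was 0.05, so the negative value came from that library. Among the WT libraries alone, WT library 3 also had the highest Foxd3 and the highest Cdh19, at 0.482 and 0.880 CPM. Smad7-/- library 3 had more Cdh19, at 1.01 CPM.

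Mbp, which encodes myelin basic protein, was the most abundant of the 6, and its highest library stood only 1.36 times above its lowest. It lay at 80.8, 86.8 and 70.8 CPM in the Smad7-/- libraries, against 89.9, 83.3 and 66.0 CPM in the WT libraries. The groups covered nearly the same range, with means of 79.5 ± 8.09 CPM in Smad7-/- and 79.7 ± 12.4 CPM in WT (SD, n = 3 each). The log2 fold change was -0.01 ± 0.13 (SE; edgeR adjusted p = 1.00), and its 95% interval of 0.820-fold to 1.21-fold was the narrowest of the 6. Mbp lies at chr18:82475146-82585637 on the forward strand, 7.08 Mb from Smad7, so it is linked to the disrupted gene.

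**Figure D2:**
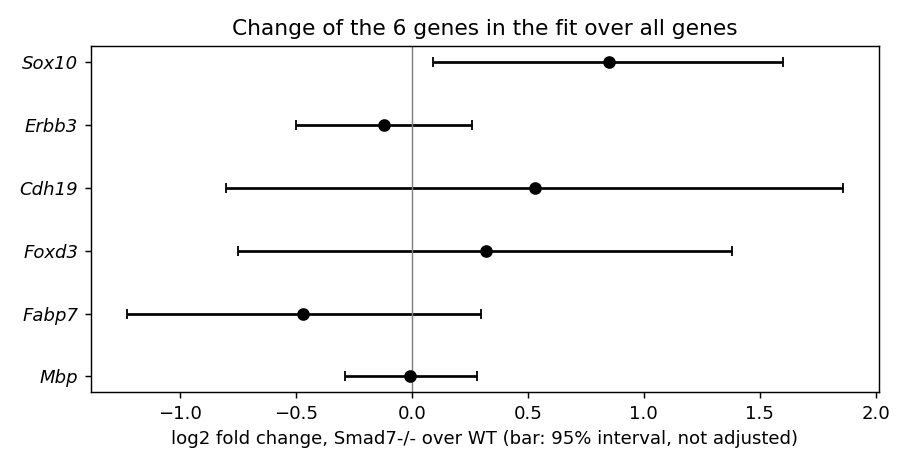
Log2 fold change of each of the 6 genes, Smad7-/- over WT, from the edgeR fit over all 15284 tested genes, with bars for the 95% interval before any adjustment. The Sox10 interval runs from 0.09 to 1.60, those of the other 5 genes include 0, and that of Mbp is the narrowest.

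The 6 genes lay at widely different levels per exon length. Per kb of exon in WT, Mbp stood at 9.42 CPM, Fabp7 at 4.02, Erbb3 at 3.47, Sox10 at 0.234, Foxd3 at 0.132 and Cdh19 at 0.125. In Smad7-/- the order of the first 3 was Mbp at 9.38, Erbb3 at 3.20 and Fabp7 at 2.90, followed by Sox10 at 0.419, Cdh19 at 0.178 and Foxd3 at 0.164. Fabp7 and Erbb3 changed places between the genotypes, as did Foxd3 and Cdh19, and the libraries of each pair overlapped. Mbp exceeded Sox10 by 19.9 to 24.3 times in Smad7-/- and by 26.4 to 72.2 times in WT. The value of 72.2 was that of WT library 1, and WT libraries 2 and 3 stood at 38 and 26.4.

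The annotation bears on how Mbp is read. GENCODE M21 lists 14 protein-coding Mbp transcripts whose outermost starts lie 79434 bases apart, and the gene is known to produce golli transcripts outside myelinating cells as well as the classic myelin forms. A count per gene symbol adds these forms together, and which of them the reads came from was not tested. Erbb3 is likewise known from epithelia, and epithelial genes were abundant: the 12 listed genes summed to 8412 to 10617 CPM in Smad7-/- and 10027 to 11203 CPM in WT. In bulk RNA, fewer cells of a type cannot be told apart from less RNA per cell, and which cells the reads of any member came from was not tested.

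Some genes that mark Schwann cells more narrowly were scarce. Gfra3, the artemin receptor of Schwann cell precursors, lay at 0.745 to 1.10 CPM in Smad7-/- and 0.780 to 1.17 CPM in WT. Markers of mature myelin were lowest: Gjb1, the gap junction protein of myelinating Schwann cells, had 0 counts in every library, and Pmp2, a lipid carrier of peripheral myelin, had at most 0.0460 CPM.

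**Figure D3:**
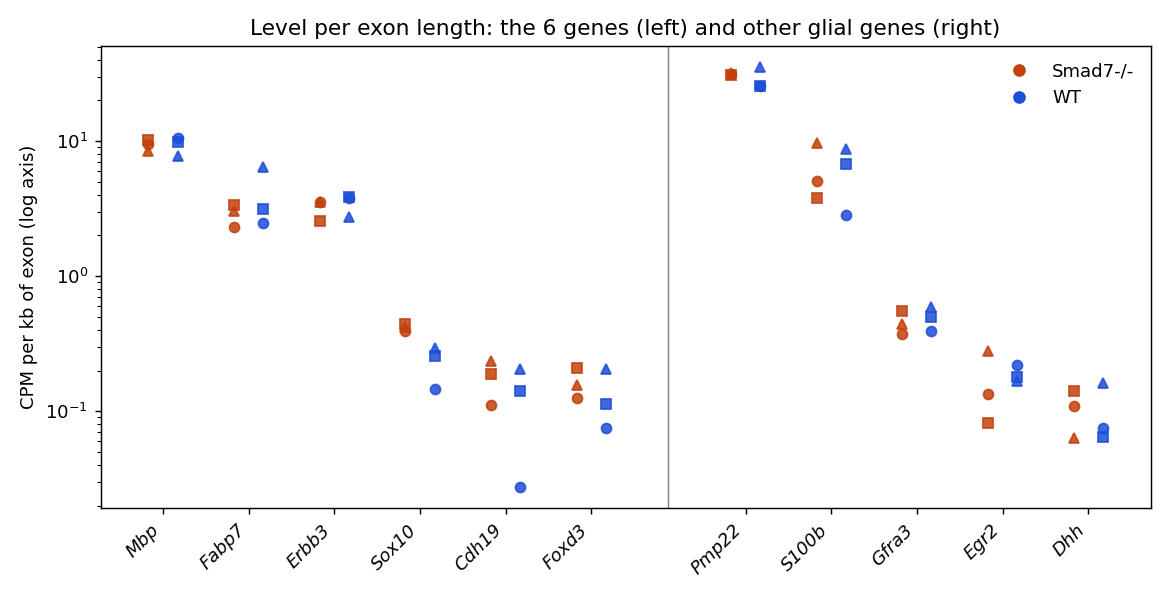
Level per kb of exon (CPM per kb, log axis) of the 6 genes, left of the grey line, and of 5 other glial genes, right of it, with 1 point per library, Smad7-/- left of WT for each gene. Mbp, Fabp7 and Erbb3 lie more than 1 decade above Cdh19 and Foxd3 on average.

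Across the wider list of Schwann cell precursor and immature Schwann cell genes, 26 of 28 were tested, and 0 passed by edgeR in either direction or by DESeq2. An unadjusted p under 0.05 in edgeR was found for 2 of the 26, against 5.14% of all tested genes. Of the tested genes, 18 had a log2 fold change above 0, against 7498 of 15284 over all tested genes. The median was 0.07, against 0.00 over all tested genes, and the range ran from -0.37 to 0.52. Ranges did not overlap for 3 genes, all higher in Smad7-/-, where 4.97% of all tested genes did so: Gpr126, Egr1 and Plekhb1. Gpr126, the adhesion receptor that Schwann cells need to begin myelination, lay at 15.8, 15.2 and 18.6 CPM in Smad7-/-, against 12.8, 11.6 and 13.4 CPM in WT (log2 0.39 ± 0.13 SE; edgeR adjusted p = 0.796). Zeb2, a transcriptional repressor that lets Schwann cells differentiate, had a log2 fold change of 0.36 ± 0.15 (edgeR adjusted p = 0.915). The abundant members Itga4, an integrin, and Ncam1, an adhesion molecule, stood at -0.19 ± 0.12 and 0.30 ± 0.22; both are also expressed outside glia.

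Myelin and promyelin genes gave 13 tested of 20, with 0 passing by edgeR or DESeq2 and a median log2 fold change of 0.13. At an unadjusted p under 0.05 in edgeR there was 1, against 5.14% of all tested genes. Mal, a proteolipid of myelin and of epithelial cells, was the 1 gene of 13 whose ranges did not overlap, where 4.97% of all tested genes were apart and higher, at 0.745, 0.920 and 1.01 CPM in Smad7-/-, against 0.449, 0.263 and 0.628 CPM in WT (log2 1.00 ± 0.40 SE; edgeR adjusted p = 0.884). Pmp22, Gldn and Drp2, the most abundant tested members, stood at 0.12 ± 0.13, 0.47 ± 0.24 and 0.06 ± 0.21. Pmp22, which encodes a myelin membrane protein also made by mesenchyme, reached 73.8 ± 1.26 CPM in Smad7-/- and 67.8 ± 13.3 CPM in WT (SD, n = 3 each).

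Among neural crest transcription factors, 18 of 19 were tested; 0 passed by edgeR and 1 by DESeq2, where 0.366% of all tested genes passed. At an unadjusted p under 0.05 in edgeR there were 4, against 5.14% of all tested genes, and the median log2 fold change was 0.09. Ranges did not overlap for 4 of the 18, all higher in Smad7-/-, against 4.97% of all tested genes: Tfap2b, Twist1, Snai1 and Msx1. These genes are also transcription factors of the jaw mesenchyme, so they are not specific to glia. Tfap2b lay at 16.9, 15.4 and 17.6 CPM in Smad7-/-, against 9.72, 7.48 and 12.6 CPM in WT (log2 0.74 ± 0.18 SE; edgeR adjusted p = 0.608; DESeq2 adjusted p = 0.0402). Twist1 had a log2 fold change of 0.55 ± 0.16 (edgeR adjusted p = 0.691). Sox9, the relative of Sox10 that marks crest and cartilage, lay at 57.1 to 77.7 CPM in Smad7-/- and 62.3 to 69.0 CPM in WT (log2 0.05 ± 0.12 SE). Msx2 and Id3, the most abundant of the list, stood at -0.01 ± 0.09 and -0.04 ± 0.08.

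**Figure D4:**
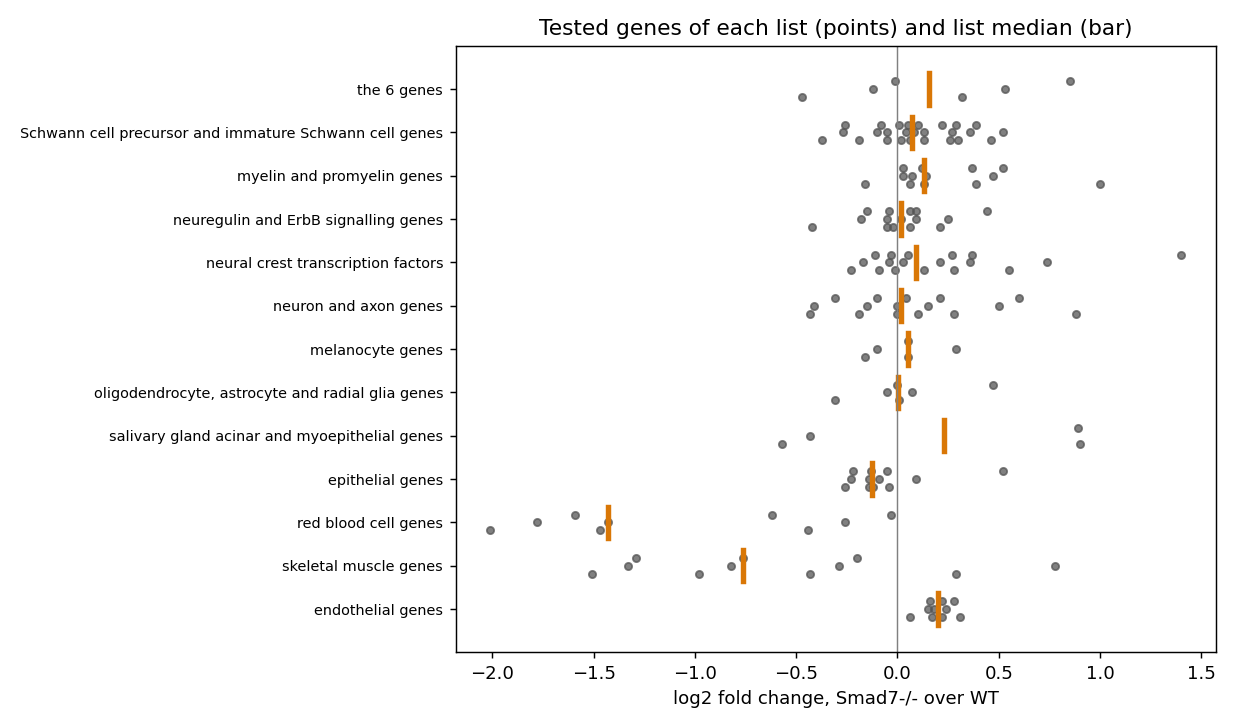
Log2 fold change, Smad7-/- over WT, of every tested gene in the 6-gene group and in 12 lists of related or other cell types, with an orange bar at each median. Medians of the Schwann cell, myelin, neuregulin, neural crest, neuron and melanocyte lists lie between 0.02 and 0.13, while those of red blood cell and skeletal muscle genes lie at -1.43 and -0.76.

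Markers of the other cells that use these genes were read beside the Sox10 values. Of the 26 neuron and axon genes, 16 were tested, 0 passed by edgeR or DESeq2, and the median log2 fold change was 0.02. At an unadjusted p under 0.05 in edgeR there were 0, against 5.14% of all tested genes. The 26 genes summed to 430 to 503 CPM in Smad7-/- and 491 to 514 CPM in WT. Most of that sum was Tubb3, Ntrk2 and Stmn2 (log2 -0.19 ± 0.11, -0.10 ± 0.09 and -0.15 ± 0.12), while Syt1, a synaptic vesicle protein gene, was the 1 gene with ranges apart, lower in Smad7-/- at 1.41 to 1.89 CPM, against 2.03 to 2.22 CPM in WT, where 3.91% of all tested genes were apart and lower. The peripheral neuron genes Prph, Isl1 and Nefl were at most 0.503 CPM in any library. Th, the enzyme that makes catecholamines, and Ntrk3, a neurotrophin receptor, had the smallest unadjusted p of the list, with log2 fold changes of -0.43 ± 0.21 and 0.50 ± 0.27. The 10 melanocyte genes, of which 5 were tested, summed to 100 to 118 CPM in Smad7-/- and 100 to 118 CPM in WT; Tyr, the pigment enzyme gene, had 0 counts in every library and Tyrp1 at most 0.0390 CPM. Kit, Mitf and Ednrb, genes of melanocytes and of other cells, stood at -0.10 ± 0.13, -0.16 ± 0.11 and 0.29 ± 0.15 (log2, SE). Mitf was the 1 of the 5 tested melanocyte genes with ranges apart, where 3.91% of all tested genes were apart and lower. It was lower in Smad7-/- at 18.3 to 21.3 CPM, against 21.7 to 22.9 CPM in WT, and did not pass (edgeR adjusted p = 0.999). Of the 5 tested melanocyte genes, 0 passed by edgeR or DESeq2. For central glia, Olig2 and Mobp had 0 counts in every library, and the 12 genes summed to 248 to 333 CPM in Smad7-/- and 253 to 342 CPM in WT, most of it Nes and Cspg4 (log2 -0.05 ± 0.17 and 0.01 ± 0.10). Slc1a3, Slc1a2 and Gfap, genes of astrocytes, stood at 0.07 ± 0.25, 0.47 ± 0.52 and -0.31 ± 0.47. Aqp4, another marker of central glia, was present in every library, at 1.36 to 2.13 CPM in Smad7-/- and 1.17 to 2.33 CPM in WT. Salivary gland genes, added because that gland also uses Sox10, summed to 3.40 to 4.97 CPM in Smad7-/- and 2.97 to 3.67 CPM in WT, with Smgc at 0 counts throughout. Of the 4 salivary genes tested, 3 had ranges apart, against 8.88% of all tested genes, and 0 passed by edgeR or DESeq2. Car6, a secreted carbonic anhydrase, and Lpo, a peroxidase of saliva, were higher in every Smad7-/- library, with log2 fold changes of 0.89 ± 0.31 and 0.90 ± 0.43 (edgeR adjusted p = 0.827 and 0.992), beside 0.85 for Sox10. Aqp5, a water channel of secretory cells, was lower in every Smad7-/- library (log2 -0.57 ± 0.43; edgeR adjusted p = 0.999). The part of salivary tissue in the Sox10 difference was not tested.

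Summed levels of blood, muscle and vessel genes were read in the same way. The 16 red blood cell genes in the tables summed to 67.3 to 81.5 CPM in Smad7-/- and 96.9 to 120 CPM in WT, with no overlap, while the globin genes Hba-a1, Hba-a2, Hbb-b1 and Hbb-b2 were listed at 0 in every library. Skeletal muscle genes summed to 9.42 to 11.6 CPM in Smad7-/- and 11.1 to 14.3 CPM in WT, and endothelial genes to 409 to 451 CPM in Smad7-/- and 294 to 440 CPM in WT. Among the leading genes of these lists, the log2 fold change was -2.01 ± 0.46 for Epb4.2, -0.62 ± 0.20 for Alas2, -0.26 ± 0.16 for Sptb and -0.03 ± 0.12 for Tmcc2. It was -1.33 ± 0.45 for Acta1, -0.43 ± 0.24 for Mylpf and 0.29 ± 0.24 for Neb in muscle, and 0.22 ± 0.14 for Cdh5, 0.22 ± 0.13 for Pecam1, 0.06 ± 0.15 for Kdr and 0.31 ± 0.15 for Esam in endothelium. Epithelial genes stood at -0.13 ± 0.13 for Krt5, -0.14 ± 0.12 for Krt14, -0.09 ± 0.15 for Perp, -0.22 ± 0.09 for Esrp1 and 0.52 ± 0.23 for Krt15. None of these lists had a gene that passed by edgeR or DESeq2, while 5 of 9 tested red blood cell genes, 4 of 11 muscle, 2 of 12 epithelial and 0 of 10 endothelial genes had an unadjusted p under 0.05 in edgeR, against 5.14% of all tested genes. Ranges were apart and lower in Smad7-/- for 6 red blood cell, 4 muscle and 1 epithelial gene, against 3.91% of all tested genes, and apart and higher for 1 muscle and 1 endothelial gene, against 4.97%. The part of these cells in the Sox10 difference was not tested.

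The 6 genes varied from library to library in different ways. Over the 15 pairs of members, Pearson's r was largest in size between Cdh19 and Foxd3, at r = 0.868 (exact permutation p = 0.0194, adjusted p = 0.177) and Spearman's rho = 0.714 (exact permutation p = 0.136, adjusted p = 0.408) over 6 libraries. Without the 2 libraries farthest from the median of Cdh19, Smad7-/- library 1 and WT library 1, r was 0.613. Erbb3 and Foxd3 ran in opposite directions, with r = -0.862 (exact permutation p = 0.0236, adjusted p = 0.177), the rho largest in size at -0.886 (exact permutation p = 0.0333, adjusted p = 0.408), and r = -0.670 without Smad7-/- library 2 and WT library 3. Sox10 and Foxd3 gave r = 0.765 (exact permutation p = 0.0681, adjusted p = 0.255) and rho = 0.829 (exact permutation p = 0.0583, adjusted p = 0.408), but r was -0.277 without WT libraries 1 and 2. Sox10 and Cdh19 gave r = 0.838 (exact permutation p = 0.0625, adjusted p = 0.255) and rho = 0.600 (exact permutation p = 0.242, adjusted p = 0.453), but r was -0.0792 without WT libraries 1 and 2, so that relation rested on those libraries. Sox10 gave r = -0.498 with Erbb3 and r = -0.358 with Mbp (exact permutation p = 0.328 and 0.510, adjusted p = 0.410 and 0.588; rho = -0.714 and -0.257). No pair passed after adjustment over the 15 pairs.

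The genes whose levels followed Sox10 most closely over the 6 libraries were sought among the 12710 genes that averaged 1 CPM or more, predicted and clone-named genes left out. They were Acp5 (Pearson's r = 0.993), Jdp2 (0.989), Tcirg1 (0.987), Ocstamp (0.983) and Rbm4b (0.976), values given as a description without a p, since they are the highest of many. Acp5, which encodes tartrate-resistant acid phosphatase, lay at 258, 288 and 262 CPM in Smad7-/-, against 107, 173 and 178 CPM in WT. Like Sox10 it was lowest in WT library 1 and highest in Smad7-/- library 2. Cdh19 and Foxd3 lay under 1 CPM and were not ranked.

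**Figure D5:**
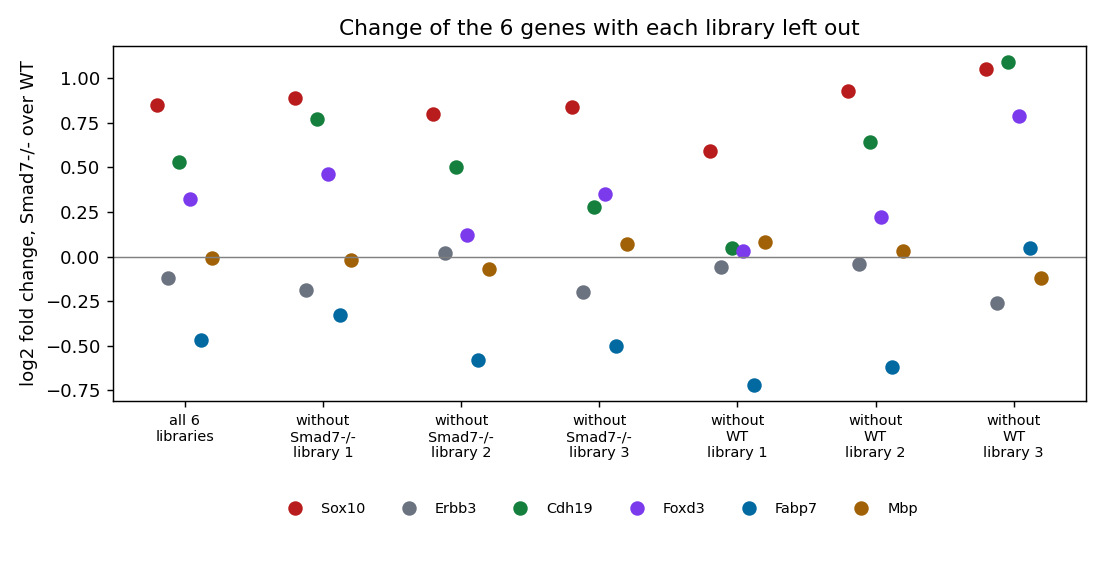
Log2 fold change of the 6 genes, Smad7-/- over WT, from edgeR fits with all 6 libraries and with each library left out in turn. Sox10 stays between 0.59 and 1.05, Cdh19 and Foxd3 come to 0.05 and 0.03 without WT library 1, and Fabp7 comes to 0.05 without WT library 3.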

How the data were processed

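The authors deposited raw counts per gene symbol, 1 table per library, made with HISAT2 on mm10 and featureCounts; DESeq2 is also named, all per the submitters' processing notes, with versions not given in the sources used here. RNeasy extraction and TruSeq RNA libraries were used, per the labels' protocols. Of 23420 symbols, 27 look like dates and hold at most 0.223% of a library's counts; they were kept.

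The edgeR function filterByExpr kept 15284 genes (minimum count 10 per gene and 15 in total), and library sizes were scaled by TMM. In R 4.3.3, edgeR 4.0.16 was fitted to all 6 libraries without covariates, with robust quasi-likelihood testing and Benjamini-Hochberg adjustment across the whole tested table at 0.05. Intervals use the fit's total degrees of freedom. CPM uses TMM library sizes, and exon lengths and positions are from GENCODE M21 (GRCm38). Fits were tested on simulated data over genes of all levels. Recovery was not read separately for genes with counts as low as those of Sox10, Cdh19 and Foxd3.

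The 6 genes and the 12 lists were chosen with earlier results of these data known. The rule for named genes took the members, Smad7, any called list gene, each list's 3 most abundant and 2 lowest-p tested genes, and the 5 genes most like Sox10 (log2 CPM, prior count 2). Genes with ranges that do not overlap, Erbb2, Nrg1, Gjb1, Pmp2, Prph, Isl1, Nefl, Tyrp1, Mobp, the globins and the extra genes plotted per kb were named after their values were seen; some list genes are not reported here. Alternatives were DESeq2 1.42.0, limma-voom (limma 3.58.1), other scalings and filters, no robust estimation, covariates, a replicate block and leaving out each library; the fit on libraries with Y-linked reads alone was added after seeing the data.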

Additional observations from a re-analysis of the deposited data

How the results depend on the processing

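None of the 6 genes passed an adjusted p of 0.05 under any of the 17 alternatives that could be fitted for them; Sox10, Cdh19 and Foxd3 had no value at a mean of at least 1 CPM, which their levels do not reach. Sox10 kept its direction in all 16, at 0.59 to 1.05, with adjusted p from 0.411 to 1.00 and an unadjusted p under 0.05 in 11. Foxd3 ran from 0.03 to 0.79. With libraries left out in turn, Erbb3 ran from -0.26 to 0.02, Cdh19 from 0.05 to 1.09, Fabp7 from -0.72 to 0.05, Mbp from -0.12 to 0.08 and Smad7 from -4.21 to -3.46. Smad7 missed the threshold without Smad7-/- library 2 (edgeR adjusted p = 0.0885). It passed when any other library was left out (edgeR adjusted p from 0.000398 to 0.0411). Mbp, at -0.01 in the main fit, changed sign in 6 of its 17 alternatives. Among them were library totals (0.000) and libraries with Y-linked reads alone (0.17). Cdh19 changed sign in 1, libraries with Y-linked reads alone (-0.20). Erbb3 did so in 1, without Smad7-/- library 2 (0.02), and Fabp7 in 1, without WT library 3 (0.05). The cause of these changes was not tested. The count of 4 genes became 56 with DESeq2 (41 higher, 15 lower), 47 in libraries with Y-linked reads alone (13 higher, 34 lower), and 1 to 6 with each library left out. Same-numbered libraries gave residual correlations of 0.169, -0.0339 and 0.0927. Differently numbered libraries were not compared, so these values cannot settle whether the numbers pair libraries. With the replicate number as a block, 4 genes passed, Sox10 was at 0.88 and Mbp at 0.002. Genes at an unadjusted p under 0.05 in edgeR then numbered 1210, against 786 in the main fit. Foxd3 and Cdh19 had the fewest counts, with 6 to 58 per library. For Cdh19 the WT libraries also differed beyond counting error. The exact 95% Poisson interval was 0.043 to 0.255 CPM in WT library 1, against 0.409 to 0.866 and 0.634 to 1.19 CPM in WT libraries 2 and 3.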

Other observations

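Some genes of other lineages had ranges that did not overlap, though none of those given here passed over all genes. Car6 lay at 2.82, 2.21 and 1.86 CPM in Smad7-/-, against 1.72, 0.971 and 1.01 CPM in WT. Des, the intermediate filament desmin of muscle, lay at 2.02, 2.09 and 2.50 CPM in Smad7-/-, against 1.37, 1.05 and 1.44 CPM in WT (log2 0.78 ± 0.26 SE; edgeR adjusted p = 0.796), while the other muscle genes with ranges apart, Acta1, Tnni2, Ckm and Mylpf, were lower in Smad7-/-. Bhlha15, a transcription factor of secretory cells, overlapped between the groups (log2 -0.43 ± 0.48). S100b, a calcium-binding protein of Schwann cells that cartilage also makes, varied within both groups, at 5.59 to 14.3 CPM in Smad7-/- and 4.17 to 12.9 CPM in WT. Tnni2, Ckm and S100b were named after their values were seen.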
